A study of Mus musculus with 32 samples.

Results

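The 7 genes described here, *Ankrd1*, *Ankrd2*, *Ankrd23*, *Csrp3*, *Xirp1*, *Xirp2* and *Fhl1*, encode ankyrin repeat, Xin repeat and LIM domain proteins of striated muscle, and were chosen by name from the 54838 genes of the count table. RNA had been sequenced from the tibialis anterior (TA) muscle of wild-type (WT) and *Mtm1* knockout (KO) mice, a model of X-linked myotubular myopathy in which the phosphatase MTM1 is lost. Each genotype had n=4 libraries at every age, postnatal day 1 (P1), P14, P21 and P35, which gave 32 libraries in 8 groups. All mice were on a C57BL6/J background, and the KO line carries a germline deletion within *Mtm1*, so that MTM1 is lost from all cells of the muscle and not from the fibres alone. Some *Mtm1* RNA was still counted in KO.

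All 7 genes are known as part of the muscle's response to load, stretch and injury. Ankrd1 (CARP), Ankrd2 (Arpp) and Ankrd23 (DARP) form the muscle ankyrin repeat protein family, which binds the N2A region of titin in the sarcomeric I-band and can also be found in the nucleus, where it acts on transcription. Csrp3 (muscle LIM protein) sits at the Z-disc and is, like *Ankrd2*, a gene of slow rather than fast fibres in adult muscle. Xirp1 (Xin) and Xirp2 bind and stabilise actin filaments through Xin repeats. They are placed at the myotendinous junction, and Xirp1 is also laid down where fibres are damaged or remodelled. Fhl1 is an abundant LIM-only protein of the sarcomere, mutated in human X-linked myopathies.

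Expression was measured in estimated counts per gene. Levels are given as CPM, counts per 1000000 after TMM scaling over the 32 libraries, so that a gene can be followed across ages. A gene was called a DEG where edgeR's quasi-likelihood test, fitted over all genes of a comparison, gave an adjusted *P*-value under 0.01 and a change of over 1.5-fold. Library totals ran from 49321035 to 85631408 counts, and the lowest count of any of the 7 genes in any library was 62, so that depth did not limit their detection. *Mtm1* itself was below every WT library in each KO library at each age, with means of 22.1 ± 1.90 CPM in WT and 3.69 ± 0.266 CPM in KO at P35 (SD, n=4). Fast fibre markers summed to 80082 to 120221 CPM in the WT libraries at P35, and 5 heart markers to at most 15.4 CPM, with *Nppa* and *Myl7* at 0 in all 4 of them. Bulk RNA cannot tell fewer cells of a type from less RNA per cell.

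In GRCm38 coordinates, with exons from GENCODE M21, *Ankrd1* (ENSMUSG00000024803) spans chr19:36111961-36120099 on the minus strand and *Ankrd2* (ENSMUSG00000025172) chr19:42036000-42045110 on the plus strand, each with 9 exons in its longest transcript. *Ankrd23* (ENSMUSG00000067653) lies at chr1:36530188-36536883, minus strand, and *Csrp3* (ENSMUSG00000030470) at chr7:48830398-48848033, minus strand. *Xirp1* (ENSMUSG00000079243) lies at chr9:120013755-120023598, minus strand, with 3 exons, *Xirp2* (ENSMUSG00000027022) at chr2:67446002-67526614, plus strand, and *Fhl1* (ENSMUSG00000023092) at chrX:56731787-56793346, plus strand. *Ankrd23* shares 2109 exon bases with the predicted gene *Gm42417* on the same strand, so that reads could have been divided between them, but *Gm42417* held at most 41 counts in any library. *Gm13601*, antisense to *Xirp2* over 168 exon bases, held at most 1 count. *Cx3cr1* overlaps *Xirp1* with 0 shared exon bases.

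The start sites of 6 of the 7 genes had 9 entries in RefSeq (GRCm38.p6). Their 250 upstream bases were searched on both strands for the sites of factors known from load and muscle gene regulation: MCAT (CATTCC, bound by TEAD factors), CArG (SRF), MEF2, AP-1 (TGANTCA) and the E-box (CANNTG). The windows that held a motif other than an E-box are shown 5′ to 3′ on the gene's strand, because they show how differently these start sites read, with the motif in capitals. *Ankrd1* (chr19:36119845-36120094) held MCAT in its reverse form at -210 to -205 and -123 to -118 from the start site. *Ankrd23*, start site 2 (chr1:36535740-36535989), held it forward at -120 to -115. *Xirp2* (chr2:67445752-67446001) held AP-1 at -107 to -101 and MEF2 at -74 to -65. *Fhl1*, start site 1 (chrX:56779433-56779682), held CArG at -102 to -93.
Ankrd1: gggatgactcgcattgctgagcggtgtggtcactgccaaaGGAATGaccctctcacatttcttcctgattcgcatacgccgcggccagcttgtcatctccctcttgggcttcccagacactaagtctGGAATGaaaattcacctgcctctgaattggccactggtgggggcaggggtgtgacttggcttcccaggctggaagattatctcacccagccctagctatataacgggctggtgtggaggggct
Ankrd23: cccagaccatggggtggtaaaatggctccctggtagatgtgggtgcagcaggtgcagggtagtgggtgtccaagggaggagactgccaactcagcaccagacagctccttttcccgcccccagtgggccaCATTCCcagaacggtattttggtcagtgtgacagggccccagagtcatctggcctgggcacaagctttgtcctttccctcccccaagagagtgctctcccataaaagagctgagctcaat
Xirp2: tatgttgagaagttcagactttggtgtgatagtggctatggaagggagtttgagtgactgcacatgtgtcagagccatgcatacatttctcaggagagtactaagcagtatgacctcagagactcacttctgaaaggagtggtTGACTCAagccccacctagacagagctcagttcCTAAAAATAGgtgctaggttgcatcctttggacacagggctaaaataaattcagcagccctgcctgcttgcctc
Fhl1: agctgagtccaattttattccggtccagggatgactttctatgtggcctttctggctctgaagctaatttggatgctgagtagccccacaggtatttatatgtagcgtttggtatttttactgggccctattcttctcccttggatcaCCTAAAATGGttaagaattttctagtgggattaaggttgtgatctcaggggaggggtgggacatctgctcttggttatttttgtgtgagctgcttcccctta
No capitalised motif overlapped another. Over 32851 upstream windows of the same length, 12.6% held MCAT, 1.47% CArG, 2.92% MEF2, 6.75% AP-1 and 66.2% an E-box. The *Ankrd2* window and both *Csrp3* windows held E-boxes (3, 4 and 4) and no other motif searched for. E-boxes, not capitalised above, were also in the windows of *Ankrd1* (1), *Ankrd23* start site 2 (2) and *Xirp2* (2). *Fhl1* start sites 1 and 2 held 1 and 2, and *Ankrd23* start site 1 held 0. The 50 bases after *Fhl1* start site 1 and after both *Csrp3* start sites were not found unbroken in a GENCODE M21 transcript of the gene. The CArG match, the E-box of *Fhl1* start site 1 and the *Csrp3* E-boxes thus lie at start sites not matched between the 2 annotations. A match is a run of letters and not a measured site, and gene counts do not show which start site was in use.

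**Figure D1:**
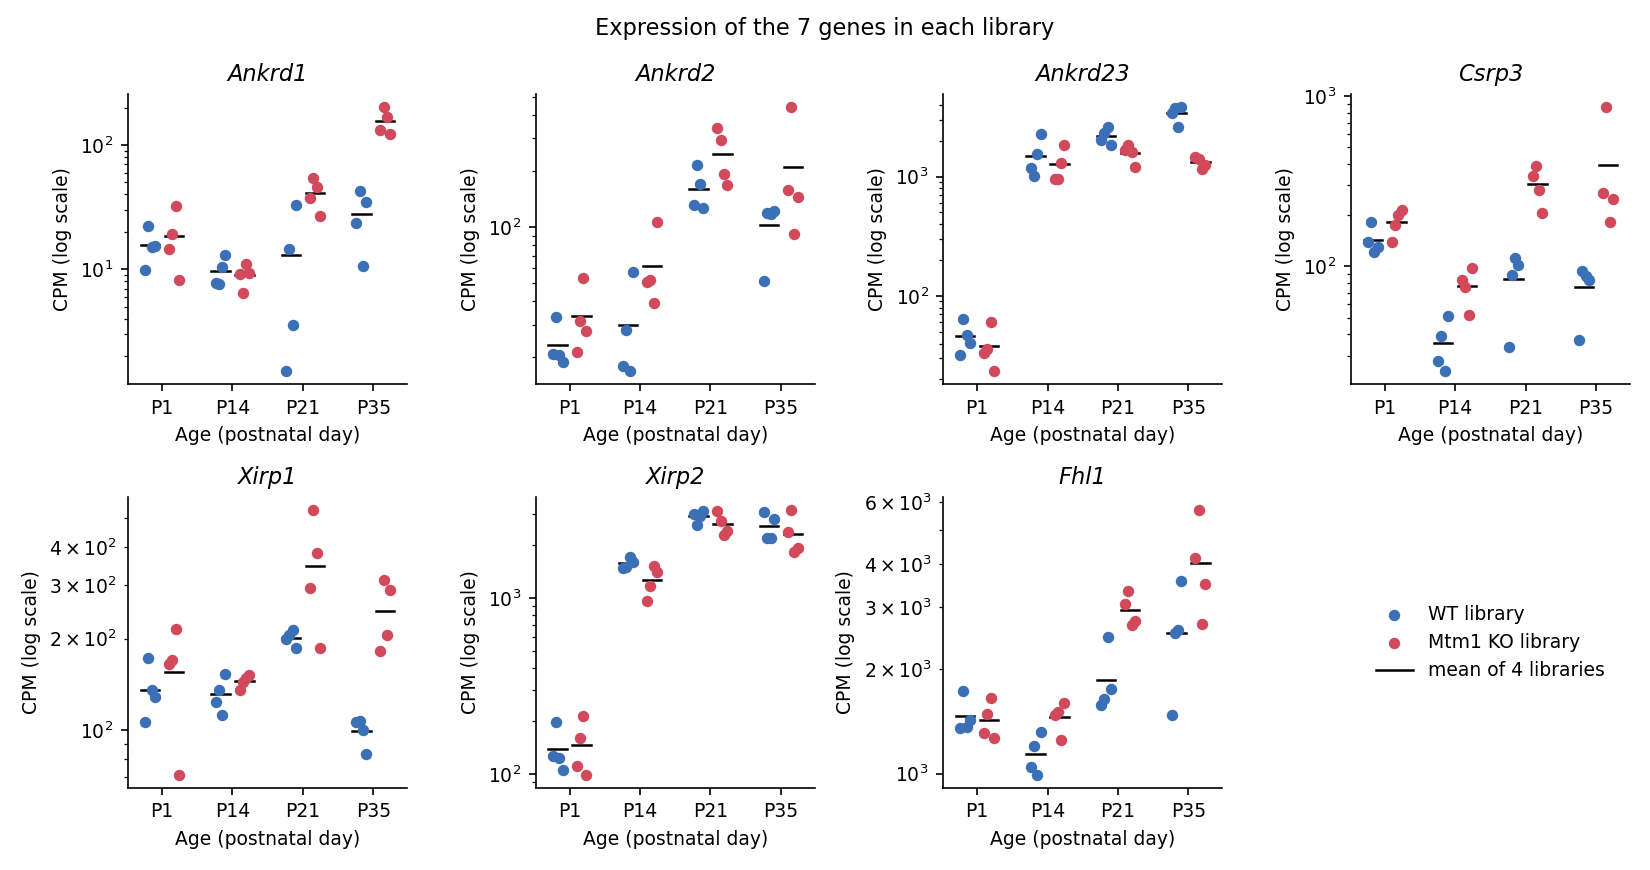
CPM of each gene (log axis) in each of the 32 libraries by age (postnatal day), WT in blue and KO in red, with a black line at the mean of 4 libraries. The KO libraries lie above all WT libraries at P35 for *Ankrd1*, *Csrp3* and *Xirp1* and below them for *Ankrd23*, while *Xirp2* overlaps at each age.

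The first question was how these genes run through normal postnatal growth, as a base for reading the KO. Between P1 and P14, 2 of the 7 genes rose in WT, *Ankrd23* by 32.5-fold and *Xirp2* by 11.3-fold, and *Csrp3* fell. The comparison called 55.1% of all genes, a larger share than 3 of 7. The 4 WT libraries held *Ankrd23* at 31.8, 64.0, 47.2 and 40.4 CPM at P1 and at 1181, 1009, 1537 and 2266 CPM at P14 (log2 fold change 5.02, SE 0.328, adjusted *P*=7.15e-07). *Xirp2* was at 126, 198, 123 and 106 CPM at P1 and at 1479, 1499, 1710 and 1603 CPM at P14 (3.50, SE 0.196, adjusted *P*=3.03e-07). Both thus passed from low to high expression in the first weeks of life, with no overlap of the ages. *Csrp3* went the other way, from 140.0, 182, 122 and 131 CPM to 28.0, 39.0, 24.3 and 51.2 CPM (-2.02, SE 0.231, adjusted *P*=2.66e-05). The KO libraries made the same 3 calls, at log2 fold changes of 5.01 for *Ankrd23* (adjusted *P*=2.70e-06), 3.09 for *Xirp2* (7.57e-06) and -1.27 for *Csrp3* (2.93e-04), where 52.6% of all genes were called. The tissue itself changed make-up over this step in WT: fast fibre markers summed to 7207 to 9740 CPM at P1 and 99808 to 125248 CPM at P14, and immature fibre markers to 15970 to 20872 and 138 to 689 CPM. Keratinocyte markers went from 1779 to 5707 CPM at P1 to 2.91 to 3.45 CPM at P14, and fibroblast markers from 11974 to 16037 CPM to 4027 to 7976 CPM. None of these ranges overlapped, and their part in the changes of the members was not tested.

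From P14 to P21, 3 of the 7 genes rose in WT (5.53% of all genes were DEGs): *Ankrd2* by 5.30-fold, *Xirp2* by 1.85-fold and *Xirp1* by 1.52-fold. *Ankrd2* was at 17.9, 28.0, 16.9 and 57.2 CPM in WT at P14 and at 131, 214, 169 and 126 CPM at P21 (log2 fold change 2.41, SE 0.392, adjusted *P*=0.0033). In KO, 6 of the 7 rose, against 7.04% of all genes called in either direction: *Ankrd1* by 4.51-fold (adjusted *P*=6.60e-04), *Ankrd2* by 3.95-fold (0.00366), *Csrp3* by 3.89-fold (9.40e-04), *Xirp1* by 2.38-fold (0.00865), *Xirp2* by 2.07-fold (0.00256) and *Fhl1* by 2.01-fold (8.88e-04). *Ankrd23* alone of the 7 was not called in KO, where it changed by 0.31 on the log2 scale (SE 0.219, adjusted *P*=0.319). These counts depended on single libraries. In WT the count was 1 without replicate 1, 2 or 3 at P14, 5 without replicate 4 at P14 and 2 without replicate 2 at P21, with *Xirp2* called throughout. In KO it was 3 without replicate 2 at P14 and 4 to 6 without any other library, with *Ankrd1*, *Csrp3* and *Fhl1* called throughout. The difference between the genotypes' changes was itself past the threshold for 0 of the 7 genes, as described with the interactions.

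From P21 to P35, *Xirp1* fell in WT, from 200, 205, 214 and 187 CPM to 106, 107, 99.7 and 83.1 CPM (log2 fold change -1.04, SE 0.0944, adjusted *P*=7.04e-04), as the 1 of 7 genes called where 2.45% of all genes were. All WT libraries at P35 were below all at P21. In KO the 1 gene called was *Ankrd1*, which rose from 37.7, 53.8, 46.0 and 26.8 CPM to 133, 203, 169 and 122 CPM (1.95, SE 0.228, adjusted *P*=0.00166), with 4.01% of all genes called. *Ankrd2* in WT went from its P21 level to 51.4, 119, 117 and 122 CPM, below all P21 libraries, but the change was not called (-0.67, SE 0.274, adjusted *P*=0.119).

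The main question of the design was how KO muscle differs from WT as the disease runs its course. At P1, 0 of the 7 genes were DEGs with edgeR, 0 with DESeq2 and 0 at an unadjusted *P*-value under 0.05, in a comparison that called 0.0442% of all genes. Log2 fold changes ran from -0.24 (SE 0.292) for *Ankrd23* to 0.53 (SE 0.280) for *Ankrd2*, and the genotypes overlapped for all 7 genes. KO replicate 4 was the lowest KO library for 5 of the 7 genes. Its immature fibre markers summed to 7391 CPM, beside 17166, 17989 and 20242 CPM in the other KO libraries. Without it the log2 fold change was 0.45 for *Xirp1* and 0.50 for *Ankrd1* (0.21 and 0.26 with it), and 0 of 7 were called.

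At P14 the count with edgeR was again 0 of 7, against 0.0318% of all genes. At an unadjusted *P*-value under 0.05 there were 3 of 7, beside 1072 of the 15728 genes tested. DESeq2 called 1 of 7, *Csrp3*, and 55 genes in all. *Csrp3*, the Z-disc LIM protein, was at 28.0, 39.0, 24.3 and 51.2 CPM in WT and at 82.9, 75.8, 51.8 and 98.3 CPM in KO. All 4 KO libraries thus stood above all 4 WT libraries, though the highest WT value was close to the lowest KO value (log2 fold change 1.11, SE 0.261, adjusted *P*=0.282 with edgeR and 0.00558 with DESeq2). *Ankrd2* was at 50.6, 52.3, 39.0 and 106 CPM in KO, and its WT library of replicate 4 at 57.2 CPM overlapped them (1.05, SE 0.444, adjusted *P*=0.711). Same-numbered WT and KO libraries deviated together at this age (r of 0.19 to 0.588). The labels state no pairing, and libraries of different numbers were not compared, so these values do not show that the numbers pair libraries. When replicate number entered the edgeR fit as a block, *Csrp3* (1.14, adjusted *P*=2.53e-04) and *Ankrd2* (1.12, adjusted *P*=2.53e-04) were called, 2 of 7 against 0.623% of all genes.

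At P21, 1 of the 7 genes was a DEG (4.67% of all genes were). At an unadjusted *P*-value under 0.05 there were 6 of 7, beside 5329 of the 15179 genes tested. DESeq2 called 3 of 7, *Csrp3*, *Fhl1* and *Xirp1*, and 1079 genes in all. *Csrp3* was at 33.8, 89.0, 112 and 102 CPM in WT and at 341, 387, 281 and 206 CPM in KO, with no overlap, and rose by 3.62-fold (log2 fold change 1.85, SE 0.344, adjusted *P*=0.00606). The call stood close to the threshold: when each library was left out in turn it held in 3 of 8 fits, and the log2 fold change lay between 1.57 and 2.02. It was lost without WT replicate 2 or 4 (0.0178 and 0.0119) or KO replicate 1, 2 or 3 (0.0153, 0.019 and 0.0128). Of the genes not called, *Fhl1* was at 1577, 1643, 2461 and 1745 CPM in WT and at 3072, 3335, 2666 and 2740 CPM in KO, again without overlap (0.68, SE 0.155, adjusted *P*=0.0144 with edgeR and 2.14e-04 with DESeq2). *Ankrd23* was at 2029, 2292, 2586 and 1825 CPM in WT and at 1683, 1822, 1602 and 1212 CPM in KO. The highest KO value was just below the lowest WT value (-0.46, SE 0.150, adjusted *P*=0.0569 with edgeR, and 0.00925 with DESeq2 but under 1.5-fold). *Xirp1* reached 530.0 CPM in KO replicate 2 but was at 187 CPM in KO replicate 4, at the level of WT (0.80, SE 0.258, adjusted *P*=0.0539 with edgeR and 0.00933 with DESeq2). *Ankrd1* spread widest in WT, at 1.52, 14.7, 3.60 and 32.7 CPM, and WT replicate 4 overlapped the KO libraries (1.66, SE 0.726, adjusted *P*=0.135).

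By P35, 4 of the 7 genes were DEGs, where 16% of all genes were: *Ankrd1*, *Csrp3* and *Xirp1* rose in KO, and *Ankrd23* fell. *Ankrd1*, a widely used marker of muscle stress, was at 23.4, 43.0, 10.6 and 34.9 CPM in WT and at 133, 203, 169 and 122 CPM in KO. Each KO library was thus above the highest WT library, a 5.71-fold rise (log2 fold change 2.51, SE 0.374, adjusted *P*=8.30e-04) exceeded by 1.21% of the genes tested.

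*Ankrd23* was at 3395, 3724, 2581 and 3840 CPM in WT and at 1450, 1412, 1145 and 1237 CPM in KO, so that each KO library was below the lowest WT library (-1.34, SE 0.149, adjusted *P*=2.21e-04), at 0.394 of the WT level. *Xirp1* was at 106, 107, 99.7 and 83.1 CPM in WT and at 182, 311, 206 and 289 CPM in KO, a 2.54-fold rise (1.34, SE 0.176, adjusted *P*=4.52e-04). The 3 calls of *Ankrd1*, *Ankrd23* and *Xirp1* held without any 1 of the 8 libraries, at log2 fold changes of 2.24 to 2.79, -1.46 to -1.28 and 1.21 to 1.46.

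*Csrp3* was at 37.2, 94.7, 87.7 and 83.2 CPM in WT and at 271, 867, 183 and 250 CPM in KO, a 5.30-fold rise (2.40, SE 0.506, adjusted *P*=0.00474). The genotypes did not overlap, but KO replicate 2 was far above the others, and without it the log2 fold change was 1.65 (adjusted *P*=0.00268), lower by more than 1.5 times in fold. The call was lost without any 1 of the 4 WT libraries, at adjusted *P*-values of 0.0119 to 0.0141.

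The other 3 genes were not called at P35. *Ankrd2* was at 51.4, 119, 117 and 122 CPM in WT and at 157, 441, 91.5 and 145 CPM in KO. KO replicate 3 fell within WT and KO replicate 2 stood apart (1.06, SE 0.465, adjusted *P*=0.0942), and without KO replicate 2 the log2 fold change was 0.38. *Fhl1* was at 1472, 2538, 2577 and 3576 CPM in WT and at 4157, 5700, 2682 and 3507 CPM in KO, with overlap (0.69, SE 0.289, adjusted *P*=0.084). *Xirp2* was at 3095, 2206, 2188 and 2821 CPM in WT and at 2365, 3157, 1832 and 1928 CPM in KO, and its fold change on the log2 scale was -0.13 (SE 0.197, adjusted *P*=0.637) and became 0.29 when libraries were scaled by their totals alone. Of the 2 Xin repeat genes, *Xirp1* was thus called and *Xirp2* was not, and of the 3 ankyrin repeat genes 1 rose, 1 fell and 1 was not called.

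**Figure D2:**
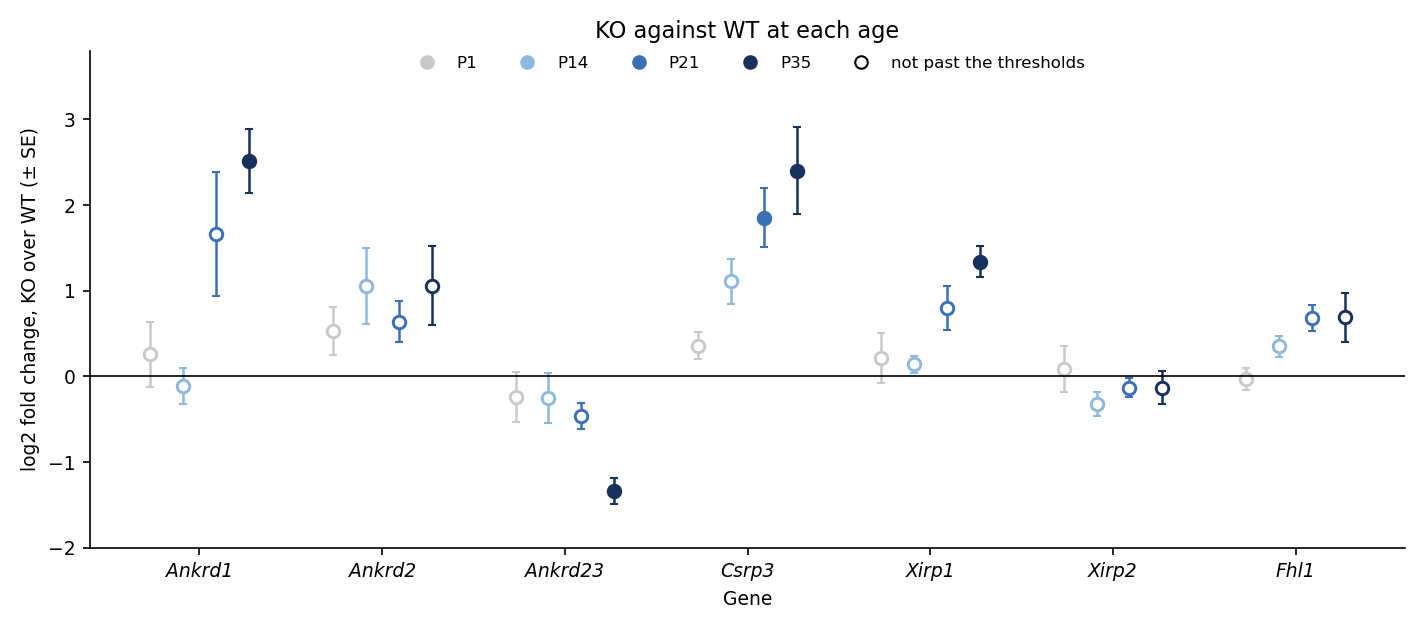
Log2 fold change of KO over WT with its standard error (y axis) for each gene at the 4 ages, from the edgeR fits of 8 libraries, filled where the gene was a DEG. The filled points are *Csrp3* at P21 and *Ankrd1*, *Ankrd23*, *Csrp3* and *Xirp1* at P35, and *Ankrd23* is the 1 filled point below 0.

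Whether the KO effect changed from age to age was tested as an interaction over all 32 libraries. With edgeR, 0 of 7 genes passed an adjusted *P*-value of 0.01 in each of the 3 steps, against 0.0161% of all genes from P1 to P14, 0.425% from P14 to P21 and 0.463% from P21 to P35. DESeq2 also called 0 of 7 in each. Beside 1200, 2398 and 3241 of all 18583 genes, the unadjusted *P*-value was under 0.05 for 0, 1 and 1 of the 7. Those were *Ankrd1* from P14 to P21 (difference of log2 fold changes 1.75, SE 0.756, adjusted *P*=0.305) and *Ankrd23* from P21 to P35 (-0.90, SE 0.366, adjusted *P*=0.194). The 6 risers in KO beside 3 in WT from P14 to P21 are therefore not shown to be different effects. For the genes called at P35 but not at P21, the effects at those 2 ages are likewise not shown to differ. The 3 steps join neighbouring ages only, and the KO effect at P35 was not tested against that at P14 or P1.

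Levels of different genes can be compared only per length, and are given here as CPM per kb of exon. In WT at P35 the order ran from *Ankrd23* at 1255 ± 211, *Fhl1* at 684 ± 231, *Xirp2* at 215 ± 37.8 and *Ankrd2* at 89.7 ± 29.7 to *Csrp3* at 28.3 ± 9.77, *Xirp1* at 17.0 ± 1.92 and *Ankrd1* at 9.70 ± 4.88 CPM per kb (SD, n=4). The ranges of 1 SD around *Csrp3* and *Xirp1* met, and those of no other neighbours did. In KO at P35, *Fhl1* led at 1080 ± 344, before *Ankrd23* at 486 ± 53.5, *Xirp2* at 194 ± 50.4, *Ankrd2* at 183 ± 138, *Csrp3* at 147 ± 119, *Ankrd1* at 54.4 ± 12.8 and *Xirp1* at 42.3 ± 10.8 CPM per kb. There the ranges of 1 SD around *Xirp2*, *Ankrd2* and *Csrp3* overlapped. Those of *Ankrd2* and *Csrp3* also overlapped those of *Ankrd1* and *Xirp1*, which overlapped each other. By these ranges *Xirp2* stood above *Ankrd1* and *Xirp1* in KO, and the rest of the order below *Ankrd23* is not settled. The ranges treat each gene apart, although all were measured in the same 4 libraries, so they do not give the order within a library. Within each KO library at P35, for example, *Ankrd2* was above *Ankrd1* per kb of exon. The spacing depends on the length used: per kb of the longest transcript, *Ankrd1* was at 13.9 in WT and 77.7 CPM per kb in KO, with *Xirp1* still at 17.0 and 42.3.

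Within the ankyrin repeat family the make-up turned over after birth. Of the summed CPM per kb of its 3 genes in WT, *Ankrd23* held 39.4 ± 3.19% at P1 and 95.0 ± 1.72% at P14 (SD, n=4), and then 84.8 ± 2.39% at P21 before 92.6 ± 2.46% at P35. *Ankrd2* held 48.1 ± 4.73% in WT and 58.9 ± 6.55% in KO at P1. Whether it was the largest in WT depends on the length: with that of the longest transcript, a check added after the data were seen, *Ankrd23* exceeded it in WT replicates 3 (44.6 against 39.2%) and 4 (42.1 against 39.7%) at P1, and in 0 of the 4 KO libraries. In KO at P35 *Ankrd23* held 69.0 ± 10.5%, with 53.4 to 75.3% in the 4 libraries against 90.0 to 95.9% in WT, and *Ankrd1* held 7.68 ± 1.84% against 0.685 ± 0.273%. Those ranges did not overlap, and they follow from the rise and fall already given rather than adding a test. For the Xin pair, *Xirp1* went from 67.0 ± 3.77% of the length-scaled sum in WT at P1 to 7.48 ± 1.60% at P35, where it was 18.2 ± 4.14% in KO.

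**Figure D3:**
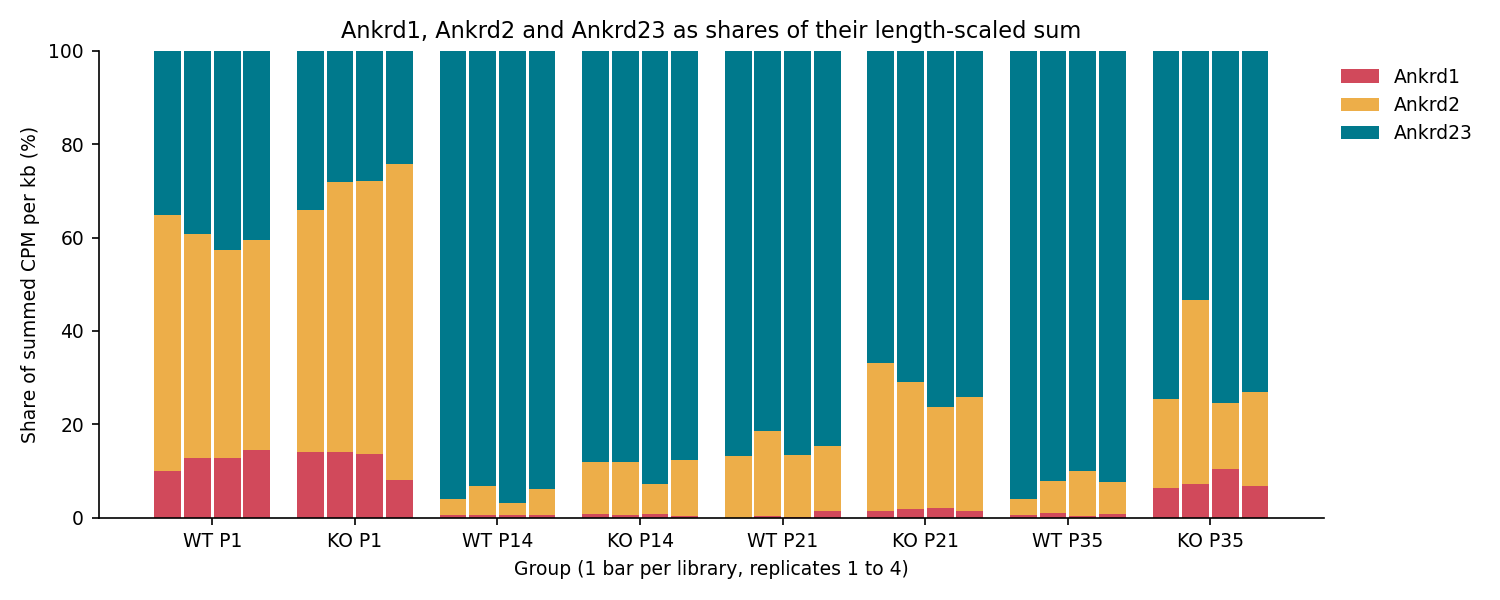
Share of *Ankrd1*, *Ankrd2* and *Ankrd23* (%) in their summed CPM per kb of exon, 1 stacked bar per library. *Ankrd23* takes 90.0 to 95.9% in the WT libraries at P35 and 53.4 to 75.3% in the KO libraries, and, with this length, less than *Ankrd2* in each library at P1.

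Markers of other fibre and cell types moved with some of these genes. The 6 slow fibre markers (*Myh7*, *Tnnt1*, *Tnni1*, *Tnnc1*, *Myl2* and *Myl3*) summed to 36.2 to 171 CPM in WT at P35 and to 768 to 1830 CPM in KO, and 5 of 6 rose, for example *Tnni1* by 4.50 and *Myh7* by 5.49 on the log2 scale (adjusted *P*=1.19e-05 and 8.74e-04). The library with the highest sum, KO replicate 2, was also the highest for *Csrp3* and *Ankrd2*, and the library with the lowest, WT replicate 1, the lowest for both. At P21 the sums overlapped, at 273 to 953 CPM in WT and 610.0 to 966 CPM in KO. There 0 of 6 markers were called by edgeR and 1 by DESeq2, with 4 at an unadjusted *P*-value under 0.05 (5329 of 15179 genes in all). The WT libraries at P21 held 295, 273, 338 and 953 CPM of slow fibre markers beside *Csrp3* at 33.8, 89.0, 112 and 102 CPM. The KO libraries held 736, 966, 803 and 610.0 CPM beside *Csrp3* at 341, 387, 281 and 206 CPM. At P14 the slow fibre sums were 924 to 1239 CPM in WT and 1095 to 1207 CPM in KO. *Csrp3* was then at 24.3 to 51.2 CPM in WT and 51.8 to 98.3 CPM in KO, and *Ankrd2* at 16.9 to 57.2 and 39.0 to 106 CPM. The WT sums at P14 were thus above those at P35, while the mean of *Csrp3* in WT was lower at P14 than at P35. The 4 immature fibre markers (*Myh3*, *Myh8*, *Myog* and *Ncam1*) summed to 29.8 to 39.2 CPM in WT and 163 to 266 CPM in KO at P35, where all 4 rose. At P21 they summed to 46.6 to 71.8 CPM in WT and 121 to 145 CPM in KO, also without overlap, and *Ncam1* (adjusted *P*=0.00156) and *Myog* (log2 fold change 1.35, adjusted *P*=0.00349) rose. At P14 the sums overlapped, at 138 to 689 CPM in WT and 191 to 1648 CPM in KO. There 0 of 4 were called by edgeR and 0 by DESeq2, with 1 at an unadjusted *P*-value under 0.05 (1072 of 15728 genes in all). *Myh3* and *Myh8* were called with the replicate block. The 6 fast fibre markers summed to 80082 to 120221 CPM in WT at P35 and to 51123 to 81968 CPM in KO, with overlap. Their median log2 fold change was -0.44 beside 0.04 over all genes, with 0 of 6 called by edgeR and 1 by DESeq2. KO replicate 2 held the lowest sum, 51123 CPM. The part of these fibre types in the results on *Csrp3*, *Ankrd1*, *Ankrd23* and *Xirp1* was not tested.

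Tendon markers (*Tnmd*, *Scx*, *Fmod* and *Thbs4*) ran in the same order as *Ankrd1* over the WT libraries at P21 and P35 but not in the other groups given here. At P21 they summed to 20.1, 405, 77.1 and 611 CPM in the WT libraries that held *Ankrd1* at 1.52, 14.7, 3.60 and 32.7 CPM, and at P35 to 562, 592, 172 and 565 CPM. At P14 the WT sums were 228, 278, 412 and 229 CPM beside *Ankrd1* at 7.76, 7.63, 10.4 and 13.1 CPM, and in KO at P21 they were 145, 191, 902 and 205 CPM beside 37.7, 53.8, 46.0 and 26.8 CPM. The orders were not the same there. In KO at P35 the sums were 691, 892, 510.0 and 367 CPM beside *Ankrd1* at 133, 203, 169 and 122 CPM. Of the 4 markers, 0 were called by edgeR at P35 and 1 by DESeq2, with 2 at an unadjusted *P*-value under 0.05 (7848 of 15595 genes in all). Among the 4 macrophage markers 2 (*Cd68* and *C1qa*) rose at P21 and at P35, with sums of 26.6 to 30.7 CPM in WT and 38.8 to 50.4 CPM in KO at P21, and of 26.4 to 32.7 and 38.2 to 56.5 CPM at P35. Of 3 endothelial markers *Cdh5* fell at P35 (-0.89, adjusted *P*=0.0049), with sums of 265 to 506 CPM in WT and 233 to 296 CPM in KO. At P21 their sums did not overlap, at 467 to 716 CPM in WT and 362 to 433 CPM in KO. There 0 of 3 were called by edgeR and 1 by DESeq2, with 3 at an unadjusted *P*-value under 0.05 (5329 of 15179 genes in all). The part of these cells in the members' values was not tested.

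**Figure D4:**
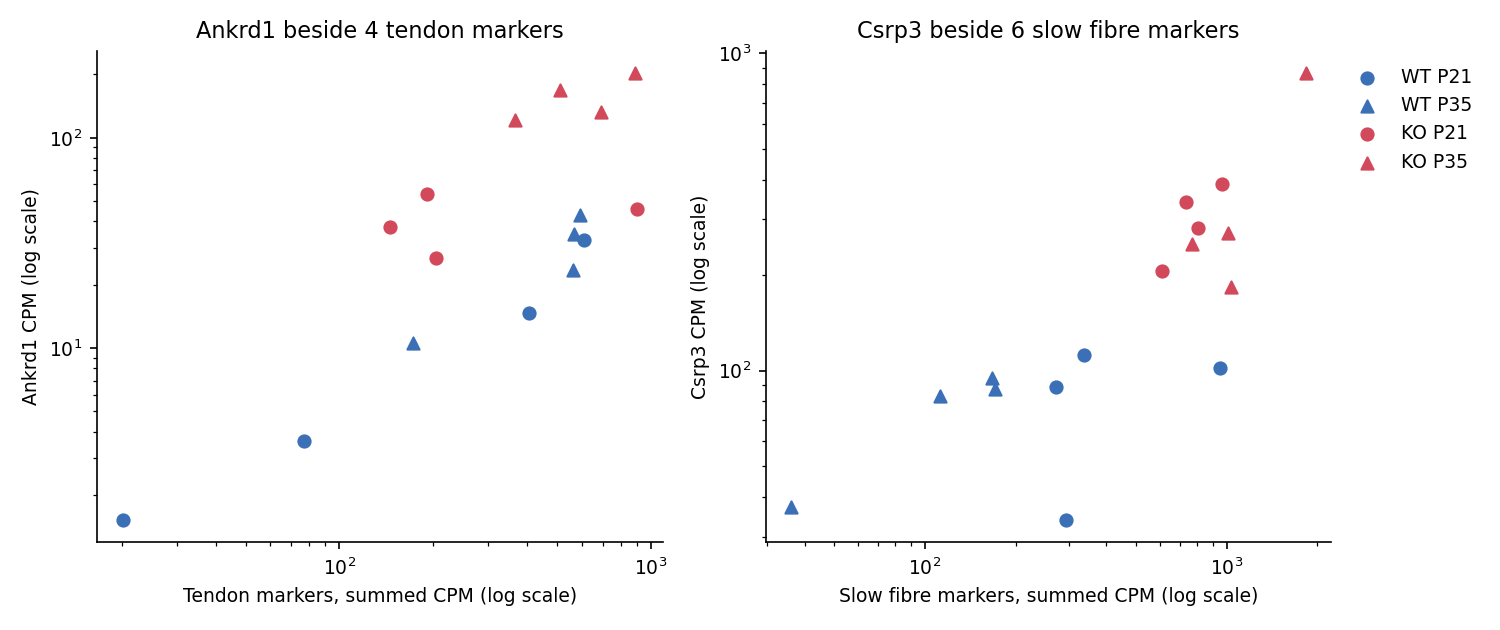
*Ankrd1* against the summed CPM of 4 tendon markers, and *Csrp3* against that of 6 slow fibre markers, for each library at P21 and P35 (log axes). The KO libraries at P35 lie above all WT libraries for *Ankrd1*, and KO replicate 2 at P35, at 867 CPM, lies at the upper right for *Csrp3*.

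In some groups 1 library was the highest for most of the 7 genes. WT replicate 2 was so for 7 of 7 genes at P1, KO replicate 3 for 6 of 7 at P1, WT replicate 4 for 6 and KO replicate 4 for 5 of 7 at P14, KO replicate 2 for 5 of 7 at P21, and KO replicate 2 for 6 of 7 at P35, all but *Ankrd23*. In WT at P21 replicate 3 was the highest for 4 of 7, and in WT at P35 replicates 2 and 4 for 3 each. The values of different genes from the same library are therefore not independent readings of the genotype.

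Genes that work with these 7 were followed in 5 lists of 64 genes. With edgeR 0 of 64 were called at P1 and 0 at P14, 8 at P21 and 19 at P35. At P21 and P35, 4.67% and 16% of all genes were called. DESeq2 called 0, 0, 11 and 23 of the 64 at the 4 ages, and 98, 55, 1079 and 3117 genes in all. At an unadjusted *P*-value under 0.05 there were 8, 10, 30 and 42 of the 64. Over all genes there were 1978 of 18100, 1072 of 15728, 5329 of 15179 and 7848 of 15595 at that level. Among 18 partners of titin and the Z-disc, 2 rose at P21, and 2 rose and 4 fell at P35, with a median log2 fold change of -0.33 beside 0.04 over all genes. *Trim63*, the ubiquitin ligase MuRF1, rose at both ages (1.36 and 1.28, adjusted *P*=1.42e-04 and 1.71e-04), as did *Des*, which encodes desmin (0.81 and 0.78, adjusted *P*=0.00109 and 0.00117). *Capn3*, a titin-bound protease, fell at P35, from 162 ± 12.9 to 90.1 ± 4.87 CPM (-0.82, adjusted *P*=1.31e-04). Among 12 partners of the Xin proteins, 1 rose at P21 (*Pgm5*, 0.78, adjusted *P*=0.00461), and 2 rose and 3 fell at P35 (median -0.11). *Cttn*, cortactin, rose by 0.82 (adjusted *P*=1.18e-04), while *Tln2*, a talin, and *Synpo2*, an actin-binding Z-disc protein, were lower by log2 fold changes of -0.86 and -0.73 (adjusted *P*=2.93e-04 and 6.07e-04).

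Among 9 LIM domain relatives, 2 rose at P21, and 3 rose and 1 fell at P35 (median 0.62). *Fhl2*, the relative of *Fhl1* best known from heart, went from 1.36 ± 0.804 to 6.75 ± 2.74 CPM at P35 (2.34, SE 0.416, adjusted *P*=0.00203). *Pdlim3*, a Z-disc LIM protein, went from 433 ± 83.9 to 740.0 ± 62.8 CPM (0.80, adjusted *P*=0.00227) and *Csrp2*, the relative of *Csrp3*, from 6.31 ± 1.89 to 12.0 ± 1.86 CPM (0.96, adjusted *P*=0.0044). *Fhl2* and *Pdlim3* were also the 2 that rose at P21 (1.33 and 1.05, adjusted *P*=0.00366 and 8.15e-04).

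Of the 15 genes of the YAP and TEAD pathway, whose targets include *Ankrd1*, 1 rose at P21 and 2 at P35, with 0 falling and a median of 0.10. The 2 of 15 stand beside 16% of all genes called. *Tead4*, a factor that binds MCAT, went from 5.18 ± 1.86 to 17.3 ± 4.79 CPM at P21 (1.75, adjusted *P*=0.00311) and from 3.68 ± 0.851 to 12.0 ± 2.61 CPM at P35 (1.72, adjusted *P*=2.40e-04). *Ccn2*, another target of the pathway, rose at P35 by 1.37 on the log2 scale (SE 0.316, adjusted *P*=0.00727). Of 10 genes of the SRF and MEF2 system, *Mef2c* and *Hdac4* rose at P21 (0.62 and 0.73, adjusted *P*=8.72e-04 and 0.00156), and at P35 *Mef2c* rose (0.61, adjusted *P*=0.00191) and *Mrtfa*, a cofactor of SRF, fell (-0.84, adjusted *P*=0.00229).

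The likeness of each gene's course to that of others was described by Pearson's r over the 8 group means of log2 CPM among 18583 genes, which share libraries and a strong change with age. The courses most like *Ankrd23* were those of *Rab10*, *Phyh* and *Ndufb9* (r=0.999 each), and those most like *Xirp2* were *Eif2s1* (0.999), *Gstk1* and *BC024978* (0.998 each). *Ankrd1* ran closest to *Rit1* (0.988), *Wdr54* (0.983) and *Gm15675* (0.982), *Csrp3* to *Asb6* (0.993), *Hectd2os* (0.981) and *Birc3* (0.967), and *Fhl1* to *Catsper4* (0.991), *Cst6* (0.987) and *Otub1* (0.980). *Ankrd2* ran closest to *Aldh2* (0.966), *Nat14* and *Gch1* (0.965 each), and *Xirp1* to *Pgpep1* (0.948), *Pdcd6ip* and *Egln3* (0.943 each). None of the 7 was among the 3 nearest of another. The closest pair among them was *Ankrd23* and *Xirp2* (r=0.98), followed by *Ankrd1* and *Fhl1* (0.87) and *Ankrd2* and *Fhl1* (0.85), and *Ankrd23* and *Csrp3* ran apart (-0.29). Many other genes ran closer: *Xirp2* ranked 783 in likeness to *Ankrd23*, and *Ankrd23* 410 in likeness to *Xirp2*. By Spearman's rank correlation the 3 pairs stood at 0.88, 0.64 and 0.81, so that their order depends on the measure.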

How the data were processed

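RNA of 32 TA muscle libraries had been made from poly(A) RNA with a directional kit. Per the labels, the authors aligned reads to GRCm38 with STAR 2.6.1 and deposited expected counts per gene and library from RSEM 1.2.22, not scaled between libraries. The paper's methods name another counter, and whether counting used strand is not given in the sources used here. Of 54838 gene IDs, 54723 were given a symbol from GENCODE M21. Expected counts (4.26% not whole) were rounded and tested with edgeR 4.0.16 in R 4.3.3, within the 8 libraries of each comparison (filterByExpr, TMM, glmQLFit and the two-sided glmQLFTest). *P*-values were adjusted by Benjamini-Hochberg over every gene tested. Interactions used 1 fit of 32 libraries (18583 genes). Standard errors of log2 fold changes were taken from the same fits. DESeq2 1.42.0, other scalings, no filter, the replicate block and leaving out each library were alternatives, and the scripts were tested on simulated data. A number counted as pairing libraries where each same-numbered pair of deviations correlated over 0.1, as at P14 (0.19 to 0.588). Differently numbered libraries were not compared, so this rule has no baseline. Replicates of a group differed beyond sampling noise. *P*-values weigh a difference of groups against the spread between libraries, and not against counting error alone. The 7 genes, the lists and the markers were chosen with earlier results of these data known. From each list, up to 3 called genes per age are named, by smallest adjusted *P*-value.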

Additional observations from a re-analysis of the deposited data

Results flagged for a closer look

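Among 56 sets of 4 libraries, each a gene in a group, 3 held a library whose gap to the nearest other exceeded Dixon's critical value, and chance alone flags about 1 in 20. *Ankrd2* in WT replicate 2 at P1 was the highest of its group at 32.9 CPM (gap over range 0.861). *Ankrd2* in WT replicate 1 at P35 was the lowest at 51.4 CPM (0.926), in the library with the lowest slow fibre sum, 36.2 CPM. *Csrp3* in KO replicate 2 at P35 was the highest at 867 CPM (0.872), in the library with the highest slow fibre sum, 1830 CPM. The part of slow fibres in these values was not tested.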

How the results depend on the processing

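Of 1442 values of the members under alternatives, 1316 kept their direction and side of the threshold, 26 passed it newly, 39 lost it and 61 changed sign. The counts for KO against WT at P1 and P35 and for the interactions stayed within 1.5 times. At P14 the count of 0 became 2 with the replicate block and 1 with DESeq2. At P21 the count of 1 became 2 with library totals and without a filter, 3 with DESeq2, 0 with the block and 0 to 2 without 1 library. In WT, the 3 calls from P1 to P14 became 6 with library totals, those from P14 to P21 0 with the block and 1 to 5 without 1 library, and the 1 call from P21 to P35 2 with DESeq2. In KO, the 3 calls from P1 to P14 became 6 with library totals, and the 6 from P14 to P21 became 3 with the block and 3 to 6 without 1 library. The block is the only pairing tried, and outside P14 the numbers are not known to pair libraries (mean correlation -0.14 at P1, 0.0734 at P21 and 0.0485 at P35). The cause of these moves was not tested.

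Library totals put the median of all genes at 0.09, 0.20 and 0.44 at P14, P21 and P35 (0.00, 0.01 and 0.04 with TMM), and at -0.85 in WT and -0.81 in KO from P1 to P14 (-0.08 and -0.09 with TMM). They turned *Xirp2* to 0.05 at P21 and 0.29 at P35, and *Ankrd2* to -0.45 from P1 to P14 in WT, none of them called in the main fit. The block turned *Ankrd1* to -0.30 from P14 to P21 in WT. Interactions near 0 also turned: *Ankrd23* from P1 to P14 to -0.01 with 16 libraries, *Xirp1* to 0.01 with totals and 0.04 with the block, and *Xirp2* and *Fhl1* from P21 to P35 each to 0.24 with totals, 0.03 without a filter and 0.01 with 16 libraries.

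Without 1 library, uncalled log2 fold changes that crossed 0 were, for KO against WT, *Ankrd1* (-0.15 to 0.50), *Xirp2* (-0.16 to 0.30) and *Fhl1* (-0.11 to 0.05) at P1 and *Ankrd1* (-0.23 to 0.06) and *Ankrd23* (-0.49 to 0.02) at P14. Across ages in WT they were *Ankrd2* (-0.17 to 0.55) and *Xirp1* (-0.16 to 0.08) from P1 to P14, *Ankrd1* (-0.55 to 0.81) from P14 to P21 and *Csrp3* (-0.45 to 0.05) from P21 to P35, and in KO *Xirp1* (-0.37 to 0.07) and *Fhl1* (-0.06 to 0.08) from P1 to P14 and *Ankrd2* (-0.90 to 0.02) and *Csrp3* (-0.36 to 0.62) from P21 to P35. Among interactions they were *Ankrd1* (-0.60 to 0.05), *Ankrd23* (-0.23 to 0.32) and *Xirp1* (-0.30 to 0.15) from P1 to P14, *Ankrd23* (-0.49 to 0.02) from P14 to P21, and *Ankrd1* (-0.15 to 1.21), *Ankrd2* (-0.26 to 0.67), *Csrp3* (-0.22 to 0.79), *Xirp2* (-0.19 to 0.11) and *Fhl1* (-0.23 to 0.20) from P21 to P35.

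Counts over all genes moved by more than 1.5 times at P1 (8 to 98 with DESeq2, 14 without a filter, 2 with the block and 2 with 32 libraries), P14 (5 to 98 with the block, 55 with DESeq2 and 10 without a filter), P21 (709 to 1157 with totals and 1079 with DESeq2) and P35 (2496 to 4676 with totals). Those of the age steps moved in WT from P14 to P21 (848 to 144 with the block and 1362 with DESeq2) and from P21 to P35 (368 to 175, 879 and, with 32 libraries, 744), and in KO from P14 to P21 (1097 to 487, 1799 and 1703) and from P21 to P35 (631 to 80, 1244 and 1179). Those of the interactions moved from 3 to 1 with the block, 11 with DESeq2 and 8 with 16 libraries, from 79 to 167 with totals and 217 with DESeq2, and from 86 to 53 without a filter, 156 with the block, 327 with DESeq2 and 9 with 16 libraries. Without 1 library, the counts for KO against WT lay between 0 and 15 (P1), 1 and 4 (P14), 417 and 626 (P21, with 417 without WT replicate 1, 424 without KO replicate 2 and 468 without KO replicate 4) and 1937 and 2450 (P35), this last within 1.5 times. Those of the age steps ran from 349 to 1364 in WT and 396 to 1884 in KO from P14 to P21, and from 116 to 264 and 187 to 901 from P21 to P35. Those of the interactions ran from 2 to 3, 30 to 100 and 37 to 116.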
